A study of Homo sapiens with 12 samples.

Results

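The 5 genes CA9, CA12, CA2, CA13 and SLC4A7 encode proteins that set the acid and base balance of cells, and each was found as the row of its exact symbol among 58307 gene rows of a bulk RNA-seq count table. They were chosen by measured values of these libraries, chiefly their response to rapamycin, so that response is described here and not tested. The cells were A375 and SK-MEL-28, both long-established lines from human melanomas. Either line was incubated with etoposide, a poison of topoisomerase II, or with etoposide + rapamycin, an inhibitor of mTOR that was used to induce autophagy, with 3 libraries in each of the 4 groups. Every group therefore carried etoposide, no group was left untreated or received rapamycin alone, and the doses and times of these incubations are not given in the sources used here. The study's reporting summary describes its replicates as biological and independent, while the labels do not say how the cultures of a group were kept apart, and the p-values measure only the spread between these libraries.

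Carbonic anhydrases hydrate carbon dioxide to bicarbonate and a proton. CA9 and CA12 are anchored in the plasma membrane with the active site outside the cell, whereas CA2 and CA13 act in the cytosol, and SLC4A7, also known as NBCn1, carries sodium and bicarbonate into the cell. Tumor cells that release much lactate and carbon dioxide use such proteins to keep the cytosol alkaline while the space around them turns acidic. CA9 is known as a target of the hypoxia-inducible factor HIF-1, a dimer of HIF1A and ARNT that binds DNA elements with the core ACGTG, in which the first base may also be G.

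Library totals ranged from 28189501 to 32499337 counts, and no library was a copy of another. Of 8 melanocytic markers, SOX10 held 5134 to 16540 counts in a library, S100B 1683 to 3504 and MITF 361 to 946. The pigment cell genes PMEL, MLANA, TYRP1 and DCT stayed at 46 to 92, 11 to 42, 11 to 55 and 6 to 67 counts. TYR, the key enzyme of melanin synthesis, was between 0 and 6 in every library of either line. Of 7 markers of keratinocytes, epithelium, blood and endothelium, KRT14 held 138 to 305 counts, PECAM1 39 to 186 and VWF 52 to 92, whereas KRT5, EPCAM, PTPRC and CD3E never exceeded 18. The summed level of these 7 markers was 16.1 to 19.6 CPM (counts after scaling to 1 library size) in A375 with etoposide, 13.7 to 16.9 with etoposide + rapamycin, 11.8 to 12.9 in SK-MEL-28 with etoposide and 8.39 to 10.3 with etoposide + rapamycin. Group means of log2 CPM correlated between the lines across 14209 genes with a Pearson r of 0.969 under etoposide and 0.964 under etoposide + rapamycin, a description across genes, which are not independent replicates. In a check of genes that depend on the donor of a line, 6 of the 12 libraries did not match the line on their label, all of them labelled SK-MEL-28, and no cause was tested. The lines are therefore named as labelled, and every SK-MEL-28 value and every comparison between lines below rests on these 6 libraries, while the values within A375 do not.

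The promoters of CA9, CA12 and SLC4A7 are shown because CA9 gave the largest response of the 5 genes and is known as a HIF-1 target. The windows are the 250 bases before the start of each gene as given by RefSeq (GRCh38.p14), read 5′ to 3′ on the strand of the gene. Capitals mark a match to ACGTG, or to the same core with G first, GCGTG, on either strand, and a match on the strand opposite to the gene ends in CGT or in CGC as printed.

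CA9, chr9:35673678-35673927, plus strand: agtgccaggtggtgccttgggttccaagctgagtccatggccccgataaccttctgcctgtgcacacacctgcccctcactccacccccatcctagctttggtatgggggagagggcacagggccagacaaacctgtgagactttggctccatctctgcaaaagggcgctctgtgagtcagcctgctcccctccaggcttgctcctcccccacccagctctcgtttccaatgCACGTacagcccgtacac

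CA12, chr15:63381847-63382096, minus strand: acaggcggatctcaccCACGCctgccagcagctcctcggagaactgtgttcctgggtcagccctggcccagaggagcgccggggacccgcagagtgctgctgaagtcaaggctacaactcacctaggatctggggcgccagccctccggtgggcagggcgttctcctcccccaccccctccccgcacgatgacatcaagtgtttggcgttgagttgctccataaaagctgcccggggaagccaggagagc

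SLC4A7, chr3:27484385-27484634, minus strand: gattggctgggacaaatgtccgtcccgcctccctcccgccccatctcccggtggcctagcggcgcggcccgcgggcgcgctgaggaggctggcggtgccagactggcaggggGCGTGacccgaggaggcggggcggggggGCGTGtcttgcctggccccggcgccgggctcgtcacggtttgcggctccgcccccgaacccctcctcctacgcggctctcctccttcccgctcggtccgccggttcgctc

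CA9 held 1 ACGTG, on the strand opposite to the gene 18 to 14 bases before the start, and no match to the core with G first. The motif ACGTG, on either strand, occurred in 18.5% of 35116 RefSeq promoter windows of the same length. CA12 held 1 GCGTG, on the strand opposite to the gene 234 to 230 bases before the start, and SLC4A7 held 2, at 138 to 134 and 110 to 106 bases before it, where 32.2% of all windows held at least 1. The palindrome CACGTG, which contains ACGTG, was in none of these 3 windows and in 6.35% of all windows. The GC box GGGCGG was found 3 times in SLC4A7, the window with the highest GC content (76.0%, against 60.4% in CA9 and 64.8% in CA12), and in 42.6% of all windows. These matches are letters in a window and do not show binding. No promoter of CA2 or CA13 is shown.

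CA9 was the member with the largest difference between the treatments. The gene lies on the plus strand of chr9:35673928-35681159 (GRCh38). In A375 its 3 libraries with etoposide held 362, 333 and 256 counts, and those with etoposide + rapamycin held 27, 28 and 33. The SK-MEL-28 libraries with etoposide held 798, 809 and 1009 counts, and those with etoposide + rapamycin held 52, 24 and 16. Every library with rapamycin was below every library without it in both lines, and the 2 sets of rapamycin libraries overlapped each other near 1 CPM. Mean levels were 10.8 ± 1.55 CPM (SD, n = 3) with etoposide and 0.998 ± 0.0944 CPM with etoposide + rapamycin in A375, against 27.8 ± 2.46 and 1.02 ± 0.596 CPM in SK-MEL-28.

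The fitted log2 fold change of CA9, etoposide + rapamycin over etoposide, was -3.42 (SE 0.176) in A375, a level 10.7-fold lower, and -4.76 (SE 0.234) in SK-MEL-28, a level 27.1-fold lower. The SK-MEL-28 value depended on its library with 52 counts, replicate 1 of etoposide + rapamycin, without which it was -5.34. The difference of the responses, SK-MEL-28 minus A375, was -1.34 (SE 0.357) on the log2 scale and -1.92 without that library. CA9 overlaps ARHGEF39 on the opposite strand by 1939 bases, and whether the counting used strand is not stated. ARHGEF39 held 177 to 298 counts in every library, at log2 fold changes of 0.32 and -0.09 with rapamycin in A375 and SK-MEL-28. In bulk RNA, fewer cells that express a gene and less RNA of it per cell cannot be told apart.

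**Figure D1:**
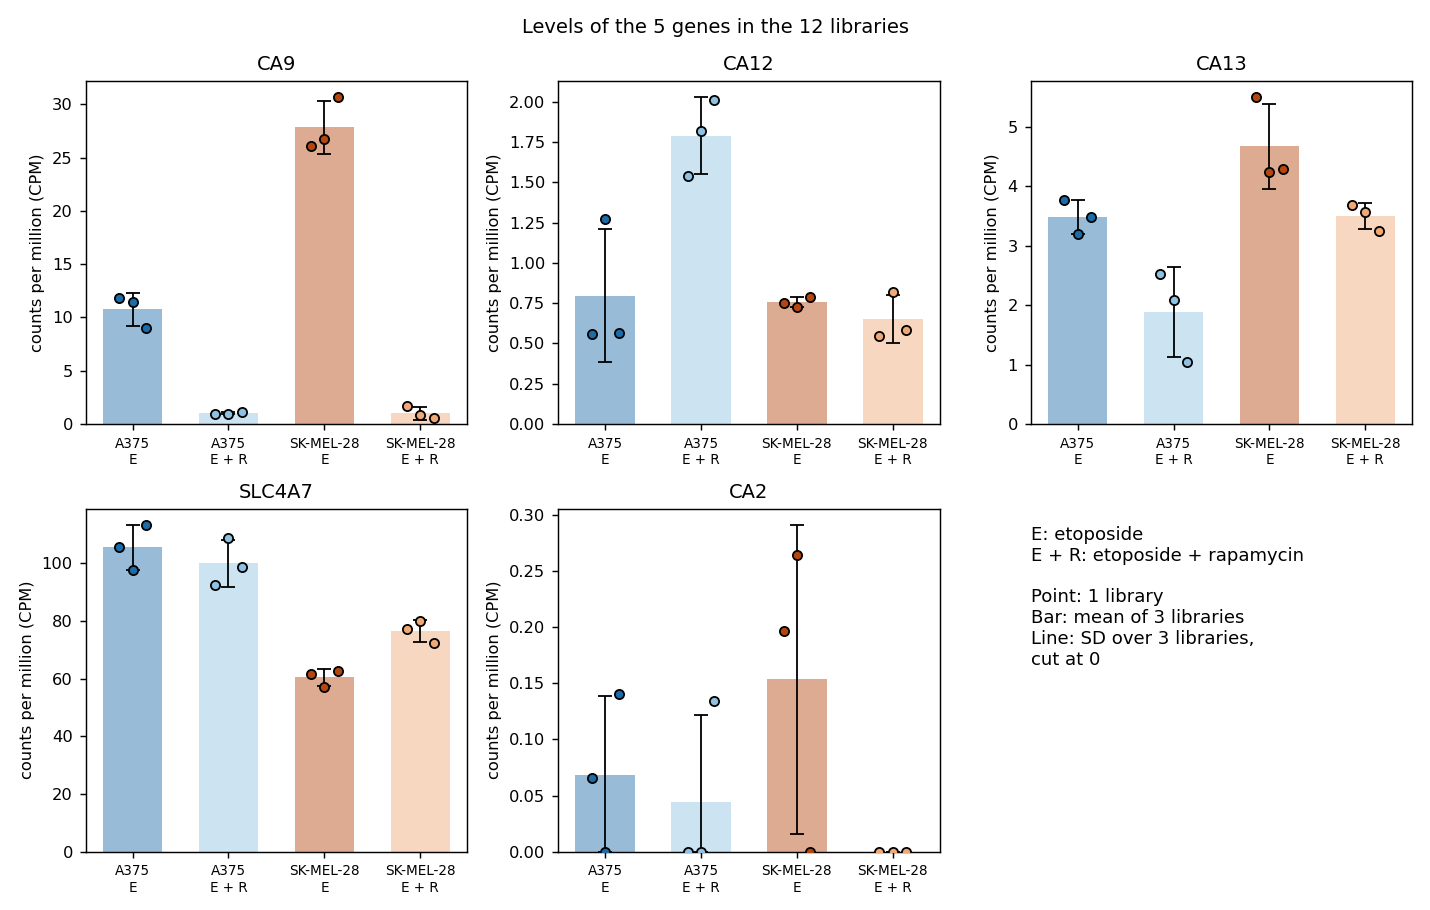
CPM of the 5 genes (y axis, one panel per gene, each with its own scale from 0) in the 4 groups (x axis), with a point per library, bars for the mean of 3 libraries and lines for the SD. CA9 lies between 8.99 and 30.6 CPM in the libraries with etoposide and between 0.520 and 1.68 CPM in those with etoposide + rapamycin.

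CA12, the other extracellular carbonic anhydrase, did not follow CA9. The gene lies on the minus strand of chr15:63321378-63381846. In A375 it held 17, 37 and 16 counts with etoposide and 44, 54 and 60 with etoposide + rapamycin. In SK-MEL-28 it held 23, 22 and 26 counts with etoposide and 17, 23 and 18 with etoposide + rapamycin. The rapamycin libraries lay above all others in A375, and the groups overlapped in SK-MEL-28. The log2 fold change was 1.17 (SE 0.344) in A375, a 2.25-fold higher level, and -0.22 (SE 0.344) in SK-MEL-28, where it was -0.11 without replicate 1 of etoposide + rapamycin and -0.42 without replicate 2. The A375 value rested in part on the etoposide library with 37 counts, replicate 2, without which it was 1.68. The difference of the responses was -1.39 (SE 0.484), and -1.90 without that library. These levels were low, the highest being 2.01 CPM in replicate 3 of A375 with etoposide + rapamycin.

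The cytosolic enzyme CA13 was lower with rapamycin in either line, by less than CA9. It lies on the plus strand of chr8:85220587-85284073. Long noncoding genes overlap CA13 on the opposite strand by 3554 and 23272 bases, and whether the counting used strand is not stated. A375 held 115, 93 and 99 counts with etoposide and 72, 62 and 31 with etoposide + rapamycin. SK-MEL-28 held 168, 128 and 141 counts with etoposide and 114, 100 and 100 with etoposide + rapamycin. The groups did not overlap in either line. The log2 fold change was -0.88 (SE 0.274) in A375, which is 1.84-fold lower, and -0.42 (SE 0.165) in SK-MEL-28, which is under the 1.5-fold threshold used for calls. The A375 value was -0.59 without replicate 3 of etoposide + rapamycin, the library with 31 counts. The difference of the responses was 0.47 (SE 0.328), and was 0.18 without etoposide + rapamycin replicate 3 of A375 and 0.74 without replicate 1 of that group.

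CA2, a cytosolic carbonic anhydrase found in many human tissues, held at most 8 counts in a library. It lies on the plus strand of chr8:85463968-85481493, close to CA13. A375 held 2, 0 and 4 counts with etoposide and 0, 0 and 4 with etoposide + rapamycin. SK-MEL-28 held 6, 8 and 0 counts with etoposide and 0 in each library with etoposide + rapamycin. CA2 passed the filter on low counts in no comparison, and a difference between groups was not detectable at this depth. The antisense gene CA3-AS1, which overlaps CA2 by 948 bases, had 0 counts in every library.

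SLC4A7, the only transporter among the 5 genes, held the most counts of them, with fitted changes under 1.5-fold. It lies on the minus strand of chr3:27372721-27484420. On the opposite strand a long noncoding gene overlaps SLC4A7 by 15240 bases and a pseudogene by 311, and whether the counting used strand is not stated. In A375 SLC4A7 held 3224, 2842 and 3221 counts with etoposide and 2643, 3232 and 2936 with etoposide + rapamycin, and the groups overlapped. In SK-MEL-28 it held 1888, 1728 and 2060 counts with etoposide and 2396, 2235 and 2229 with etoposide + rapamycin, with every rapamycin library above every other. The log2 fold change was -0.07 (SE 0.067) in A375 and 0.34 (SE 0.056) in SK-MEL-28. The difference of the responses was 0.42 (SE 0.096).

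A gene was called by edgeR's quasi-likelihood test where its Benjamini-Hochberg adjusted p was under 0.05 and its level changed more than 1.5-fold. In A375, 5.89% of the 18844 genes tested were called, and of the 4 members tested CA12 was called higher and CA9 and CA13 lower. In SK-MEL-28, 4.99% of the 18897 genes tested were called, and of the 4 members tested CA9 was called lower. The test of the difference between the lines, with no fold change threshold, called 5.62% of 20101 genes and 2 of the 4 members, CA9 and SLC4A7. Nothing is read from these member counts, since the members were chosen with these contrasts known.

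**Figure D2:**
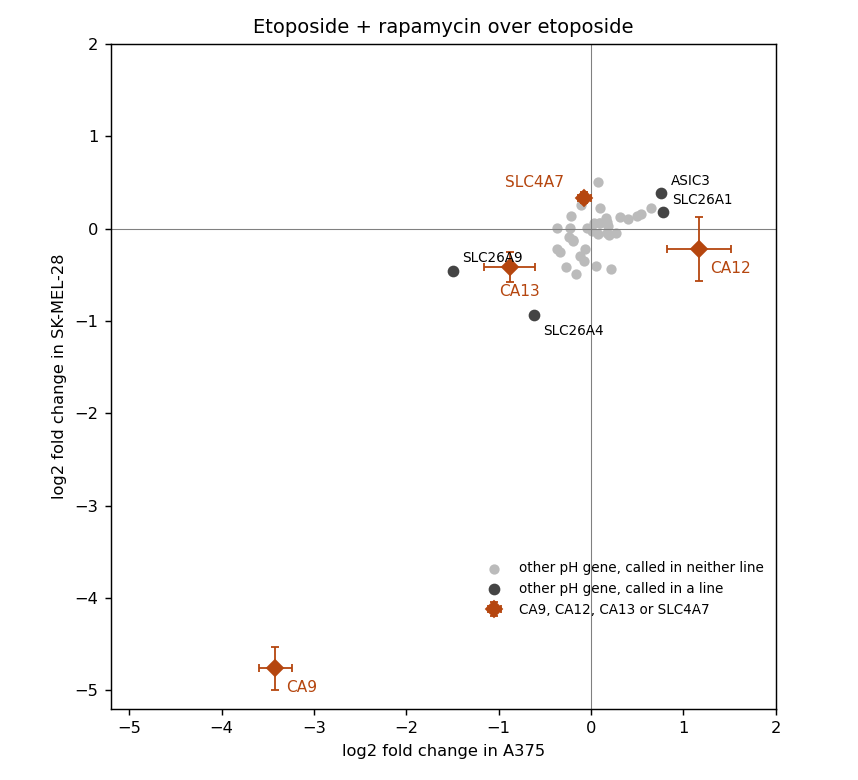
Log2 fold change of etoposide + rapamycin over etoposide in A375 (x axis) and SK-MEL-28 (y axis) for CA9, CA12, CA13 and SLC4A7 (diamonds, lines for the standard error) and for the 39 other pH genes tested in both lines (circles, dark where called in a line). CA9, at -3.42 and -4.76, has the lowest value on both axes; the next lowest are SLC26A9 in A375 (-1.497) and SLC26A4 in SK-MEL-28 (-0.94).

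Across the 12 libraries the 5 genes differed widely in level per kilobase of exon, a scale that allows for gene length. The lengths are those of annotated exons. The rows of CA9, CA13 and SLC4A7 carried StringTie identifiers and were matched by name, so the exons counted may differ from these. In A375 with etoposide the order was SLC4A7 (10.97 ± 0.804 CPM per kb, SD, n = 3), CA9 (6.74 ± 0.971), CA13 (0.622 ± 0.0511), CA12 (0.114 ± 0.0587) and CA2 (0.0342 ± 0.0350). In SK-MEL-28 with etoposide CA9 came first with 17.4 ± 1.54 CPM per kb, above SLC4A7 with 6.29 ± 0.303. CA13 followed with 0.834 ± 0.127, then CA12 with 0.108 ± 0.00448 and CA2 with 0.0765 ± 0.0684, and these last genes did not differ beyond their spread. With etoposide + rapamycin, SLC4A7 led in both lines with 10.4 ± 0.854 CPM per kb in A375 and 7.96 ± 0.392 in SK-MEL-28. CA9 then stood at 0.625 ± 0.0591 in A375 and at 0.637 ± 0.373 in SK-MEL-28, where it did not differ beyond its spread from CA13 at 0.626 ± 0.0399. In A375 with etoposide + rapamycin CA13 at 0.336 ± 0.136 and CA12 at 0.256 ± 0.0339 did not differ beyond their spread either.

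**Figure D3:**
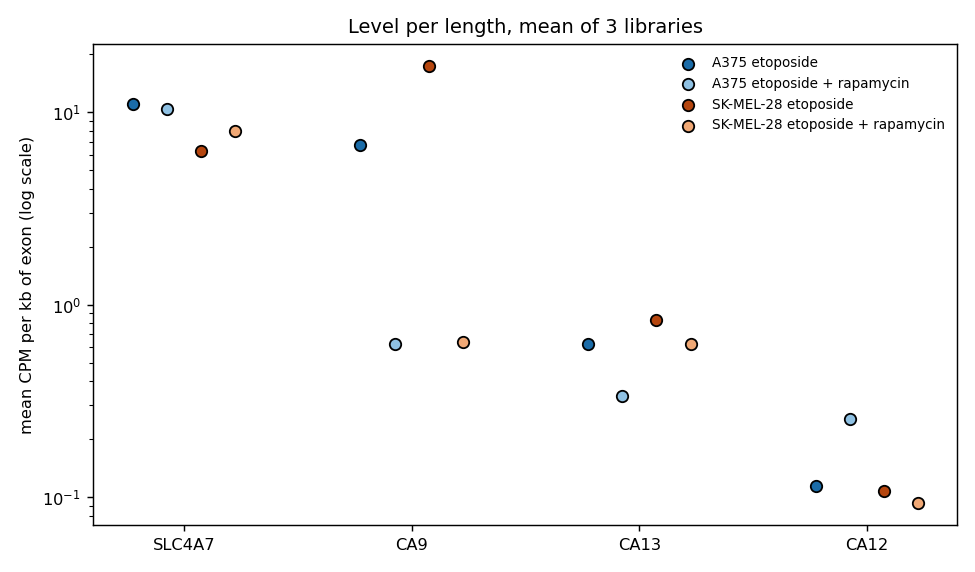
Mean CPM per kilobase of exon (y axis, log scale) of SLC4A7, CA9, CA13 and CA12 (x axis) in the 4 groups, with a point per group mean of 3 libraries; CA2 is left out because a group mean of 0 has no place on a log scale. CA9 lies at 6.74 and 17.4 CPM per kb in the etoposide groups and at 0.625 and 0.637 in the etoposide + rapamycin groups, where CA13 lies at 0.336 in A375 and 0.626 in SK-MEL-28.

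To compare the lines, SK-MEL-28 was set against A375 within each treatment in a fit of all 12 libraries. These contrasts use the libraries by which the members were chosen, so for the members they are a description with no test. Under etoposide, 12.5% of 20101 genes were called, and of the 4 members tested CA9 was called higher and SLC4A7 lower, from which nothing is read. CA9 was higher in SK-MEL-28 by 1.37 on the log2 scale (SE 0.181), with all 3 SK-MEL-28 libraries above all 3 A375 libraries. SLC4A7 was lower in SK-MEL-28 by a log2 difference of -0.80 (SE 0.068), again without overlap. For CA13 the 3 SK-MEL-28 libraries were also above those of A375, at a difference of 0.42 (SE 0.225). For CA12 the groups overlapped, with a difference of -0.07 (SE 0.347) that turned to 0.44 without etoposide replicate 2 of A375.

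Under etoposide + rapamycin, 14.4% of 20101 genes were called between the lines, and of the 4 members tested CA13 was called higher and CA12 lower. CA9 had a log2 difference of 0.04 (SE 0.306), and its libraries overlapped. Without replicate 1 of SK-MEL-28 the value was -0.55 and without its replicate 3 it was 0.36, so equal levels are not shown. CA12 was lower in SK-MEL-28 by a log2 difference of -1.46 (SE 0.337), and CA13 was higher by 0.90 (SE 0.24), both without overlap. SLC4A7 had a log2 difference of -0.38 (SE 0.067), a change under 1.5-fold without overlap of the libraries. Markers moved in the same comparisons by edgeR's test. With rapamycin, DCT was called lower in A375 (log2 fold change -1.70, adjusted p = 0.0106) and PECAM1 lower in SK-MEL-28 (-0.70, adjusted p = 0.0488), 1 of 7 melanocytic markers tested and 1 of 4 other markers tested. DCT held 17 to 24 counts in A375 with etoposide and 6 to 7 with etoposide + rapamycin. MITF (-0.51 in A375, -0.50 in SK-MEL-28) and S100B in A375 (-0.58) missed only the fold threshold, at adjusted p values of 0.00248, 0.0032 and 4.13e-05. No melanocytic marker was called higher with rapamycin. Between the lines, 2 of 7 melanocytic markers were called higher in SK-MEL-28 under etoposide, TYRP1 (1.42) and DCT (1.29), and PECAM1 was lower (-1.22). Under etoposide + rapamycin 4 were called higher, with DCT at 3.11, SOX10 was lower (-0.70), and PECAM1 (-1.54) and KRT14 (-0.74) were lower. For the difference of the responses, edgeR's test called 2 of 7 melanocytic markers and none of the 4 other markers tested. These were DCT (1.82, adjusted p = 0.0257) and S100B (0.42, adjusted p = 0.0354). The part of these markers in the member values was not tested.

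**Figure D4:**
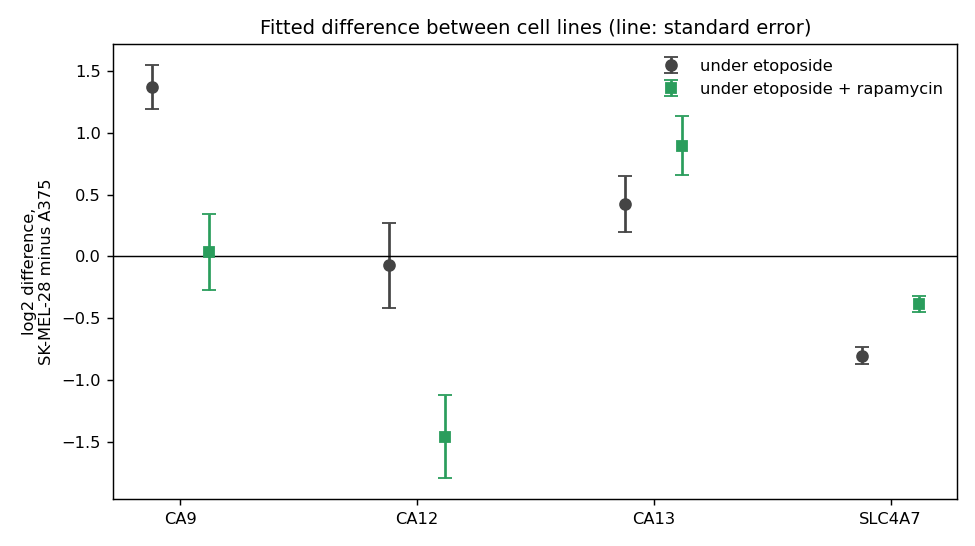
Log2 difference SK-MEL-28 minus A375 (y axis) of CA9, CA12, CA13 and SLC4A7 (x axis) under etoposide (circles) and under etoposide + rapamycin (squares), with lines for the standard error. CA9 differs under etoposide (1.37) and lies near 0 under etoposide + rapamycin (0.04), whereas CA12 lies at -0.07 under etoposide, a value that 1 library turned to 0.44, and below 0 under etoposide + rapamycin (-1.46).

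A list of 68 other genes of pH control was drawn up to place these values, made of further carbonic anhydrases, bicarbonate and anion transporters, sodium proton exchangers, lactate carriers, proton pumps and acid sensors. This list, and the HIF subunits and oxygen sensors below, were chosen with earlier results of these data known. Their calls and p-values are therefore given as a description. In A375, 40 of them were tested and 4 were called (10.0%, against 5.89% of all genes), 2 higher and 2 lower, with a median log2 fold change of 0.05 against -0.01 over all genes. The anion transporter SLC26A1 rose by 0.78 (SE 0.156, adjusted p = 0.00257) and the acid-sensing ion channel ASIC3 by 0.76 (SE 0.133, adjusted p = 0.0011). The sodium bicarbonate cotransporter SLC4A4 fell, with a log2 fold change of -1.03 (SE 0.291, adjusted p = 0.0187), as did the anion transporter SLC26A9, with -1.497 (SE 0.417, adjusted p = 0.0176). Both lower calls rested on few counts, 27 to 94 for SLC4A4 and 7 to 27 for SLC26A9 in a library of A375. Each was lost without etoposide + rapamycin replicate 2 (adjusted p = 0.0695 and 0.0624), without etoposide + rapamycin replicate 3 (0.0779 and 0.054) and without etoposide replicate 1 (0.0582 and 0.0718), and SLC26A9 also without etoposide replicate 3 (0.061). In a fit of all 12 libraries the adjusted p of SLC4A4 was 0.101.

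In SK-MEL-28, 41 of the 68 genes were tested and 2 were called (4.88%, against 4.99% of all genes), with a median log2 fold change of 0.00 against 0.01 over all genes. CA8, a carbonic anhydrase related protein without catalysis, rose by 0.82 (SE 0.233, adjusted p = 0.0264), from 41 to 46 counts with etoposide to 63 to 85 with etoposide + rapamycin. The anion exchanger SLC26A4, known as pendrin, fell, with a log2 fold change of -0.94 (SE 0.248, adjusted p = 0.0188), from 99 to 128 counts to 37 to 82. Neither call was stable to the libraries used. CA8 was lost without etoposide + rapamycin replicate 1 or 2 (adjusted p = 0.0509 and 0.102) and without etoposide replicate 2 or 3 (0.0688 and 0.0722), and SLC26A4 without etoposide + rapamycin replicate 1 or 2 (0.0645 and 0.0674) and without etoposide replicate 1 (0.0787). No gene of the list was called in both lines.

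The test of the difference between the lines called 3 of the 44 list genes tested (6.82%, against 5.62% of all genes). SLC26A2, a sulfate and anion transporter, stood at -0.37 in A375 with rapamycin and at 0.00 in SK-MEL-28 on the log2 scale (difference 0.38, SE 0.074, adjusted p = 0.00623). SLC9A3R1, a scaffold protein also known as NHERF1, stood at 0.06 and -0.41 (difference -0.45, SE 0.103, adjusted p = 0.016). SLC9A7, a sodium proton exchanger of the Golgi, stood at -0.22 and 0.14 (difference 0.37, SE 0.099, adjusted p = 0.0388), a call that was lost without any of 10 of the 12 libraries, at adjusted p values of up to 0.11.

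By family, no further carbonic anhydrase was called in A375, where 3 of 11 were tested, and CA8 was the only one of 4 tested that was called in SK-MEL-28. None of the 11 sodium proton exchangers and partners tested and none of the 6 lactate carriers and partners was called with rapamycin in either line by edgeR, where 3 and 2 of them had an unadjusted p under 0.05 in each line. Of the 44 list genes tested in the fit of all libraries, 30 were called in no comparison, and those with the highest level per length were BSG (basigin, 99.2 CPM per kb), SLC9A3R2 (38.1), SLC4A2 (32.8), CHP1 (25.6) and SLC16A1 (20.6), which are a chaperone of lactate carriers, a scaffold, an anion exchanger, a partner of proton exchangers and a lactate carrier. Not all of these were unchanged with rapamycin. In SK-MEL-28 BSG (log2 fold change -0.22) and SLC9A3R2 (-0.35) missed only the fold threshold, at adjusted p values of 0.00387 and 0.00338 by edgeR's test. In A375 so did SLC4A2 (0.17) and SLC16A1 (-0.20), at 0.0233 and 0.00726. CHP1 had an adjusted p above 0.05 in both lines. SLC26A2 stood apart in level, with 297 to 460 CPM per kb as group means, the highest of the list. It held 86570 to 157880 counts in a library, and how the counting assigned reads at its locus is not stated, so this level is uncertain.

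Between the lines, 6 of 44 list genes were called under etoposide (13.6%, against 12.5% of all genes) and 9 under etoposide + rapamycin (20.5%, against 14.4%). Under etoposide, CA8 (1.98), SLC26A4 (1.40) and the acid-sensing channel ASIC1 (0.79) were higher in SK-MEL-28 on the log2 scale, and SLC4A4 (-2.97), the SLC4 family member SLC4A11 (-1.10) and the proton-sensing receptor GPR4 (-1.02) were lower. The value of CA8 was 3.04 without etoposide replicate 3 of A375, where the 3 libraries held 4, 6 and 21 counts. The call of GPR4 was lost without 4 of the 6 libraries compared, at an adjusted p of up to 0.119. Under etoposide + rapamycin the largest differences among the called genes were those of CA8 (3.01), SLC26A4 (1.09) and SLC26A2 (0.64) among the higher genes and SLC4A4 (-2.40), SLC4A11 (-0.86) and SLC26A6 (-0.66) among the lower ones. Here the call of SLC26A4 was lost without A375 replicate 2 (adjusted p = 0.0585) or SK-MEL-28 replicate 3 (0.0949). SLC26A2 fell below the fold change threshold without SK-MEL-28 replicate 1, at a log2 difference of 0.57.

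The 8 subunits of the hypoxia-inducible factors and their oxygen sensors were examined beside CA9. EPAS1, the alpha subunit of HIF-2, fell in both lines with rapamycin, by a log2 fold change of -0.85 in A375 (SE 0.121, adjusted p = 0.000281) and of -1.39 for SK-MEL-28 (SE 0.125, adjusted p = 8.2e-06). HIF1A fell in A375 from 13940 to 15268 counts with etoposide to 8924 to 9338 with etoposide + rapamycin (log2 fold change -0.66, SE 0.041, adjusted p = 5.55e-07). In SK-MEL-28 its log2 fold change was -0.23 (SE 0.052, adjusted p = 0.00778), under the 1.5-fold threshold, and the difference between the lines was 0.43 (SE 0.062, adjusted p = 0.000666). The prolyl hydroxylase EGLN1 changed by -0.31 on the log2 scale in A375 and by -0.43 in SK-MEL-28, also under that threshold, at adjusted p values of 0.000425 and 5e-05. The other 5 genes, ARNT, VHL, EGLN2, EGLN3 and HIF1AN, were called in neither line. ARNT in A375 and HIF1AN in SK-MEL-28, both at -0.18, had adjusted p values of 0.0212 and 0.0281 but changed less than 1.5-fold. None of the 8 was called between the lines under either treatment by edgeR, where 3 and 4 of them had an unadjusted p under 0.05. Under etoposide HIF1A (-0.495), EGLN1 (-0.45) and VHL (-0.28) missed only the fold threshold, at adjusted p values of 1.52e-07, 9.56e-07 and 0.000352. Under etoposide + rapamycin so did EGLN1 (-0.55), VHL (-0.31) and EGLN2 (-0.28), at 6.76e-08, 0.000113 and 0.00316. The larger response of HIF1A was in A375 and that of CA9 in SK-MEL-28, and a relation between them was not tested.

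The genes most like each member were taken by Pearson's r of log2 CPM over the 12 libraries, among genes with a mean of at least 100 counts. All points share the same 4 groups, so r mostly follows the group means and is given as a description. For CA9 these were HSPA5 (r = 0.990), an endoplasmic reticulum chaperone, SDC3 (0.988), UGP2 (0.982), PIK3R3 (0.980) and PDK1 (0.979), a kinase that inhibits pyruvate dehydrogenase. Their log2 fold changes with rapamycin were smaller than those of CA9, from -0.45 to -0.98 in A375 and from -0.59 to -1.51 in SK-MEL-28. For CA12 they were EFHD2 (0.930), TP73 (0.922) and SNRPB (0.915), for CA13 SRPK2 (0.961), GOT1 (0.957) and C14orf119 (0.954), and for SLC4A7 DEPDC7 (0.977), DUSP10 (0.970) and ITGB8 (0.969). For CA2, with at most 8 counts in a library, the highest were ARHGAP44 (0.782), SNRPA1 (0.779) and ABCF1 (0.773). Among the members, r was 0.607 between CA9 and CA13, -0.772 between CA12 and CA13 and -0.358 between CA9 and CA12.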

How the data were processed

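RNA of 12 melanoma cell libraries was sequenced. The authors aligned reads with HISAT2 2.2.0 to GRCh38, handled alignments with Samtools 1.3.1, quantified genes of Ensembl release 90 by StringTie 2.1.4, and deposited raw counts per gene and library without normalization. How coverage became counts, and whether strand was used, is not given in the sources used here. A count may therefore not be 1 read, and precision is given by the spread between libraries.

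Of 58312 rows, 5 named no gene, held 0.000991% to 0.00529% of a library, and were left out. Members and gene lists were chosen with earlier results of these data known. Tests used edgeR 4.0.16 in R 4.3.3 (filterByExpr with a minimum count of 10, TMM, glmQLFit and glmQLFTest) and p-values were adjusted by Benjamini-Hochberg across every gene tested. Each line was fitted alone, and all 12 libraries together for the difference between lines and the comparison of lines. Calls took an adjusted p under 0.05 and, except for the difference, a fold change over 1.5. Standard errors were derived as the log2 change over the root of its F statistic. CPM were scaled by library totals times TMM factors over the 20101 genes tested in all 12 libraries. Levels per length used exons of GENCODE 44, in which 28176 rows were found through their identifier, 20342 through their name, 746 through an earlier symbol and 9043 not at all. The scripts were tested on simulated counts.

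Named genes were the 5 members, list genes called with rapamycin or for the difference, the 5 never-called list genes with the highest level per length, the 3 list genes with the largest called difference each way between lines, the 8 HIF subunits and oxygen sensors, and the genes most correlated with each member (5 for CA9, 3 for the others). ARHGEF39, CA3-AS1 and the markers were named after their values were seen. The alternatives run were the tool DESeq2 1.42.0, DESeq2 size factors in edgeR, library totals, a filter of 1 count in any library, rows of the same symbol summed, no fold change threshold, one fit of all 12 libraries or of only the 6 compared, the replicate number as a block, and each library left out in turn. Promoter windows came from RefSeq (GRCh38.p14). Figures were drawn with matplotlib 3.10.9.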

Additional observations from a re-analysis of the deposited data

Results flagged for a closer look

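These genes were called for a difference of the rapamycin response between the lines as labelled. The calls came from edgeR's test of the difference itself (all 12 libraries, log2 difference SK-MEL-28 minus A375, adjusted p under 0.05, 5.62% of all genes). CA9 had a difference of -1.34 and SLC4A7 of 0.42, which describe the contrasts these genes were chosen with and are not read as tests. Of the other pH genes, SLC26A2 had a difference of 0.38 and SLC9A7 of 0.37, where the log2 fold change was below 0 in A375 alone, and SLC9A3R1 had a difference of -0.45. The difference of HIF1A was 0.43. With 3 libraries in a group, no single library was tested for standing apart.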

How the results depend on the processing

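Over 53 results there were 919 alternative values. Of these, 854 kept their side of the threshold or, for values without a test, stayed within the spread between libraries. The other 65 did not, and none changed sign with a call. The direction of values that were not called was not part of this rule. Some of them reversed and were still taken as kept, such as CA9 between the lines under etoposide + rapamycin. Its main log2 difference was 0.04, and it ran from -0.55 to 0.36 with a library left out. A count of list genes called was taken as kept where it changed by no more than 1.5-fold, so the kept counts need not be equal. Without the fold change threshold the list genes called numbered 13 in A375 (4 with it), 6 in SK-MEL-28 (2 with it), 18 between the lines under etoposide (6 with it) and 18 under etoposide + rapamycin (9 with it), and SLC4A7 under etoposide + rapamycin, at -0.38, was then called. In SK-MEL-28 the list count was 0 when any gene with 1 count was kept and 1 in a fit of all 12 libraries. For the difference between the lines, DESeq2 called 8 list genes and edgeR 3. Leaving out 1 library at a time gave 2 to 5 list genes in A375, 0 to 2 in SK-MEL-28, 2 to 4 for the difference, 5 to 7 between the lines under etoposide and 6 to 11 under etoposide + rapamycin. It moved the log2 fold change of CA9 in SK-MEL-28 between -5.34 and -4.44 and that of CA12 in A375 between 0.97 and 1.68. The difference of the responses then ran from -1.92 to -1.01 for CA9 and from -1.90 to -1.19 for CA12. Other than the fewer genes or libraries of the alternatives themselves, the cause was not tested. Replicate numbers did not pair the samples, with correlations of -0.065 to 0.000 between same-numbered libraries of a line and of -0.018 to 0.018 across lines, and with the replicate block the list counts were unchanged (4 in A375, 2 in SK-MEL-28, 3 for the difference), CA9 was at -3.41 in A375 and -4.78 in SK-MEL-28, and no call changed. Depth limited CA2, CA12, SLC26A9 and CA8, which held few counts. DESeq2 gave no adjusted p for SLC26A9 in A375, so that alternative has no value.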
